A study of Saccharomyces cerevisiae with 8 samples.

Results

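The large ribosomal subunit of budding yeast is built from the proteins encoded by the RPL genes and by RPP0, RPP1A, RPP1B, RPP2A and RPP2B, the genes of the acidic stalk. The members were the nuclear genes of the R64 annotation whose symbol is RPL followed by a digit, with the 5 stalk genes added. There were 81 of them among 6002 nuclear protein-coding genes, as 35 pairs of paralogs and 11 genes without one. For each gene, 5′ ends were counted on its own strand from 700 nt upstream of the start codon, or, where a coding region of that strand came nearer, from its end, to 50 nt inside the coding region. Such a coding region shortened the window of 32 members, to 173 nt at the shortest.

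Each 5′ end counted at a position of a strand is called a tag, and CPM is tags per 1000000 tags of the library. The RNA came from BY4741, a MATa laboratory strain with the alleles his3delta1, leu2delta0, ura3delta0 and met15delta0, which all libraries carried, grown to mid-log phase at 30 °C in rich medium (YPD in one label, YPAD in another). LEU2 and MET17, the gene that met15delta0 removes, had 0 tags in all libraries and URA3 had 1. The mating type a genes MFA1 and MFA2 averaged 3087 and 3138 CPM over the enzyme-treated libraries, against 0.591 to 3.14 CPM for 4 genes of the other mating type. HIS3, which is only partly deleted, had 226 CPM. After phosphatase treatment, each of 2 cultures gave 4 aliquots, treated with Decapping Pyrophosphohydrolase, Cap-Clip, TAP (Tobacco Acid Pyrophosphatase) or no enzyme, so that a cap opened by the enzyme leaves an end to which an oligonucleotide can be ligated. Polyadenylated RNA was then selected and sequenced from that end. The libraries with Decapping Pyrophosphohydrolase held 1789278 and 3479399 tags, those with Cap-Clip 1268757 and 8475181, those with TAP 10739034 and 1747139, and those with no enzyme 736236 and 80721. The aliquots of a culture held the same RNA, so the comparisons concern which ends each treatment made countable, and the spread between 2 libraries of a treatment is the only measure of error. The no-enzyme libraries did not match: the members held 2.79% of the tags of replicate 1 and 19.5% of those of replicate 2, which stood with the enzyme-treated libraries. The first bases of the members' tags differed as well. T came first in 2.92% of the member tags of replicate 2 and G in 15.5%, against 14.1% and 14.3% in replicate 1, and 86.4% began at a purine after a pyrimidine, against 56.6%. These values of replicate 2 were near those of the Decapping Pyrophosphohydrolase libraries, with T first in 2.86% and 3.74%, G first in 15.6% and 16.2% and a purine after a pyrimidine in 86.2% and 83.0%. Whether the library labelled no enzyme, replicate 2, was treated as its label says was not tested, and counts against no enzyme are given with and without it.

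Ribosomal protein genes are among the most heavily transcribed genes of growing yeast, and their transcription is driven largely by the DNA-binding protein Rap1 with Fhl1, Ifh1 and Hmo1 and shut down when TOR signalling falls. Most exist as duplicated copies that encode nearly the same protein, and introns are far more common among them than among other yeast genes. RNA polymerase II in yeast scans downstream from the promoter and starts mostly where a pyrimidine is followed by a purine, usually at an A, which becomes the capped first base of the messenger RNA.

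The main start of a gene was taken as the position upstream of the start codon with the highest mean CPM over the 6 enzyme-treated libraries, and its distance to the start codon is the leader length. The sequences below show 10 bases on either side of the main start in build R64, with the first base of the RNA in capitals. They are shown to let the start letters be read directly, and are those of the 5 most abundant members, of a pair that starts at equal distance in both copies (RPL17A and RPL17B), of the pair RPL1A and RPL1B, whose leaders differ widely, and of the stalk protein gene RPP0.
RPL41B, chrIV:221809-221829 (- strand): taagatagtcAtatcgactta
RPL41A, chrIV:130496-130516 (- strand): taaaagaaccAgaccacatcg
RPL26B, chrVII:555775-555795 (+ strand): aaggaataacAacggcaagac
RPL36B, chrXVI:76243-76263 (- strand): atagagaagcAaggataatac
RPL3, chrXV:444654-444674 (+ strand): ctagaacaacAcagttactac
RPL17A, chrXI:109238-109258 (+ strand): aagagtcctcAagaactacta
RPL17B, chrX:90755-90775 (+ strand): tcaaaaaattAacgaaacgaa
RPL1A, chrXVI:135768-135788 (+ strand): acagtcaaccAgtcgtccaaa
RPL1B, chrVII:254567-254587 (+ strand): gaaagactccAtagaactagt
RPP0, chrXII:805817-805837 (+ strand): taagatacatAagcggaatac

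All 10 begin with A after a C or a T. Over the 81 members, 61 main starts were at A and 20 at G, and 80 were at a purine that follows a pyrimidine. The exception was RPL29, discussed below. The step CA was used by 43 members (53.1%), against 47.7% of 5103 other genes with at least 10 tags. In the 10 bases after the first, A made up 50.4% in the members and 38.2% in the other genes, and T made up 16.5% and 23.8%. An A stood 8 bases before the start in 57 members (70.4%) and in 76.4% of the other genes. The base before the start was C in 69.1% of the members and 56.0% of the other genes, and T in 29.6% and 43.2%. These shares are a description of 1 annotated genome, with no test.

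The letters ACCCNNACA, a core that Rap1 recognises, were searched on both strands in the 500 bases before each main start. They were present in 39 of 81 members (48.1%) and in 266 of 5103 other genes (5.21%). In the 39 members, the nearest match began at a median of 303 bases before the start, with quartiles of 247.5 and 362.5. TATAAA was present in 46.9% of members and 58.5% of other genes, and TATATA in 34.6% and 46.9%. The 300 bases before the main start of RPL26B and RPL36B, the most abundant members with a match within that distance, are given with the match in capitals.
RPL26B, chrVII:555485-555784 (+ strand): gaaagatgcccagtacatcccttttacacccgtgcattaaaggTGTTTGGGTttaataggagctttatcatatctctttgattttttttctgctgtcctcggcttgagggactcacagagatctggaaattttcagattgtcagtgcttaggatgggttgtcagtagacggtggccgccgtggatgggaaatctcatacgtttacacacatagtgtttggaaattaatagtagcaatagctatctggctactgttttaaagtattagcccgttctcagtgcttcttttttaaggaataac
RPL36B, chrXVI:76254-76553 (- strand): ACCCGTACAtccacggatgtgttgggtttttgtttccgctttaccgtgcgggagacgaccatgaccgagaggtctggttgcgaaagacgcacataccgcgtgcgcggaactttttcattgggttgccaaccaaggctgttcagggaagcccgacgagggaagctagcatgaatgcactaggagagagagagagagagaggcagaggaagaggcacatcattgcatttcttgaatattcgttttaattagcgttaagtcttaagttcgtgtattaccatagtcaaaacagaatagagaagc
The capitals of RPL26B are the same letters read from the opposite strand. A match describes letters in a window and no binding, and other forms of the Rap1 sequence were not searched.

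Leaders of the large-subunit genes were short. The median was 24 nt, with quartiles of 20 and 31 nt, against a median of 48 nt and quartiles of 28 and 94 nt in the other genes. Leaders of 21 to 40 nt were found in 51 members, leaders of 1 to 20 nt in 21, leaders of 41 to 100 nt in 6 and longer ones in 3. The main start held a median of 43.5% of the tags in a member's whole window, coding part included, with a range of 6.03% to 82.7%. The median leader was 24 nt in each of the 6 enzyme-treated libraries. It was 23 and 24 nt with no enzyme, where 78 and 77 members had the 10 tags needed. The main start was the same position in all 6 enzyme-treated libraries in 68 members, and within 5 nt in 73.

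**Figure D1:**
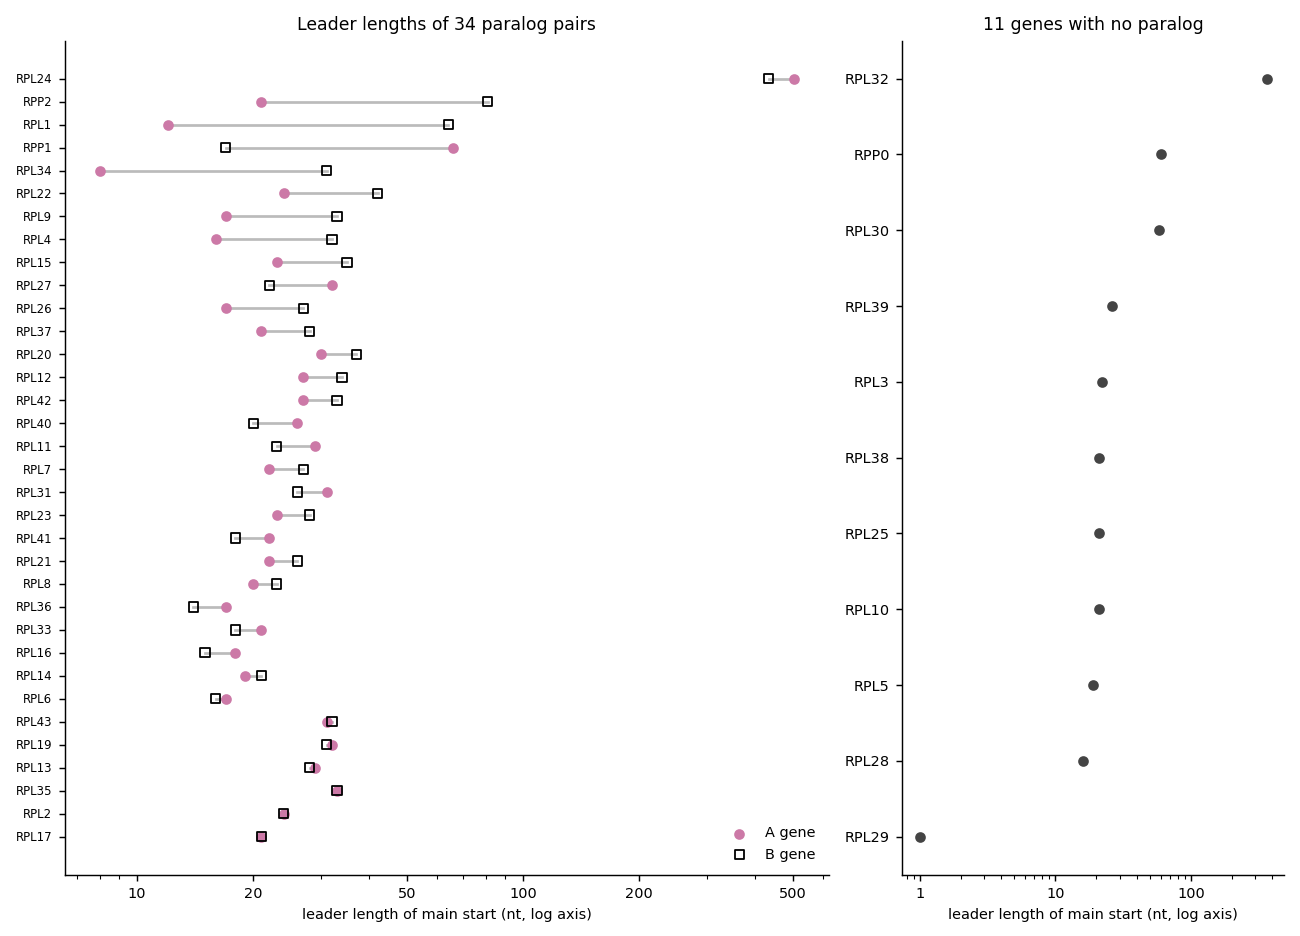
Distance of the main start from the start codon in nt on a log axis, for 34 paralog pairs with the A gene as a filled circle and the B gene as an open square, and for 11 genes without a paralog. Most leaders lie between 12 and 42 nt, and the pairs at the top differ most, up to 71 nt in RPL24.

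The 3 longest leaders belonged to RPL24A (504 nt), RPL24B (433 nt) and RPL32 (365 nt). RPL24A and RPL24B encode a protein at the bridge to the small subunit. Each of the 3 leaders holds GTATGT, the usual letters of a yeast 5′ splice site, followed by TACTAAC, those of the branch point, and an AG. Joining the bases before GTATGT to those after the first AG that follows TACTAAC would leave 48 nt in RPL24A, 81 nt in RPL24B and 32 nt in RPL32. Among 1189 other genes with a leader over 100 nt, 11 hold the same letters in that order (0.925%). Splicing itself is not visible in 5′ ends. The next longest were the stalk genes RPP2B (81 nt), RPP1A (66 nt) and RPP0 (60 nt), with RPL1B (64 nt), a protein of the mobile L1 stalk, and RPL30 (58 nt), whose protein binds its own transcript and blocks its splicing, and then RPL22B (42 nt) and RPL20B (37 nt).

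The shortest leaders were those of RPL34A (8 nt), RPL1A (12 nt), RPL36B (14 nt), RPL16B (15 nt), and RPL4A, RPL6B and RPL28 (16 nt each). RPL28 encodes the protein at which mutations give resistance to cycloheximide. RPL29 had a value of 1 nt and is a special case. Its window of tags was cut at the coding region of MIN10 on the same strand, and it held 34.1 and 25.3 CPM with Decapping Pyrophosphohydrolase, 20.5 and 24.9 CPM with Cap-Clip, 18.1 and 17.7 CPM with TAP and 335 and 0 CPM with no enzyme. Its highest position in the part left out lay 369 nt upstream, inside that coding region, with 162 and 154 CPM with Decapping Pyrophosphohydrolase, 54.4 and 61.5 with Cap-Clip, 67.6 and 59.0 with TAP and 12.2 and 136 with no enzyme. The values of RPL29 below thus do not cover that cluster.

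The main start moved with the enzyme in RPL9B and RPL35A, the members in which both Decapping Pyrophosphohydrolase libraries had 1 position and both libraries of each other enzyme had another. In RPL9B the position at 57 nt held 23.9% and 21.8% of the gene's tags with Decapping Pyrophosphohydrolase, 17.4% and 16.1% with Cap-Clip and 15.8% and 17.2% with TAP. The position at 33 nt held 18.3% and 20.5% with Decapping Pyrophosphohydrolase, 25.4% and 27.2% with Cap-Clip and 25.6% and 29.3% with TAP. The libraries of Decapping Pyrophosphohydrolase thus lay apart from the others at both starts by a few points. In RPL35A the preferred position was at 26 nt, at a TA step, with Decapping Pyrophosphohydrolase (19.4% and 21.9%), and at 33 nt, at a CG step, with Cap-Clip (19.8% and 19.9%) and TAP (18.4% and 18.4%).

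Paralogs often differed little in where they start and a great deal in how many tags they had. Tags mark 5′ ends and were not divided by gene length. Whether each tag stands for 1 molecule is not given in the sources used here, so the levels of 2 genes are compared as tags in CPM. The leaders of a pair differed by a median of 5 nt. They were equal in 3 pairs (RPL2, RPL17 and RPL35), within 5 nt in 18 and over 20 nt apart in 5. Those 5 were RPL24 (504 and 433 nt for the A and B gene), RPP2 (21 and 81 nt), RPL1 (12 and 64 nt), RPP1 (66 and 17 nt) and RPL34 (8 and 31 nt). The next were RPL22 (24 and 42 nt), RPL9 (17 and 33 nt), RPL4 (16 and 32 nt), RPL15 (23 and 35 nt) and RPL27 (32 and 22 nt). RPL26 also differed by 10 nt (17 and 27 nt). The same dinucleotide at the main start was used by both genes in 11 pairs.

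The fold between the mean CPM of the higher and the lower gene of a pair had a median of 2.52 and ranged between 1.04 in RPL16 and 44.8 in RPL15. RPL15A had 5023 and 4671 CPM with Decapping Pyrophosphohydrolase, 5672 and 3671 CPM with Cap-Clip, 3839 and 4941 CPM with TAP and 1573 and 4559 CPM with no enzyme. RPL15B had 87.2 and 89.4 CPM with Decapping Pyrophosphohydrolase, 100.9 and 123 CPM with Cap-Clip, 114 and 107 CPM with TAP and 14.9 and 86.7 CPM with no enzyme. The libraries of RPL15A and RPL15B did not overlap in any enzyme treatment. The A gene was the higher one in 21 of 35 pairs, and in 33 pairs the same gene held more than 50% of the pair's tags in all 6 enzyme-treated libraries. RPL43A over RPL43B (12.4-fold) and RPL37A over RPL37B (11.9-fold) were the next most unequal. Of 53787 positions in the members' windows, 252 begin 42 bases, the length of a read, that occur more than once in the unspliced genome. They held 108 of 5254564 member tags in all libraries. Reads across a splice junction were not checked, and how repeated positions were aligned is not given. The part of reads shared by paralogs in these values was thus not tested.

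The share of the B gene moved with the enzyme in part of the pairs. Both Decapping Pyrophosphohydrolase libraries lay on 1 side of both TAP libraries in 26 of 35 pairs. Over the ribosomal protein pairs of both subunits, 39 of 59 did so (66.1%). These 59 include the 35 pairs, so that share is no separate comparison. With 2 libraries against 2, an exact permutation test cannot give a p under 0.333. The difference of the means exceeded 5 percentage points in 17 pairs. Of the tags of its pair, RPL24B held 21.9% and 23.7% with Decapping Pyrophosphohydrolase, 35.1% and 40.4% with Cap-Clip and 40.6% and 35.1% with TAP. RPL36B held 80.3% and 78.8% with Decapping Pyrophosphohydrolase, 68.7% and 67.5% with Cap-Clip and 64.4% and 65.0% with TAP. RPL33B held 27.8% and 17.5% with Decapping Pyrophosphohydrolase, 38.2% and 38.3% with Cap-Clip and 36.5% and 37.2% with TAP. In these 3 pairs the Decapping Pyrophosphohydrolase libraries lay apart from the other 4, below them for RPL24B and RPL33B and above them for RPL36B. RPL11B, for a protein that enters the subunit with 5S RNA and the product of RPL5, held 41.4% and 44.6% with Decapping Pyrophosphohydrolase, 30.7% and 34.6% with Cap-Clip and 31.2% and 28.0% with TAP. The means of RPL1, RPL7, RPL15 and RPL19 differed by under 1 point between Decapping Pyrophosphohydrolase and TAP.

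**Figure D2:**
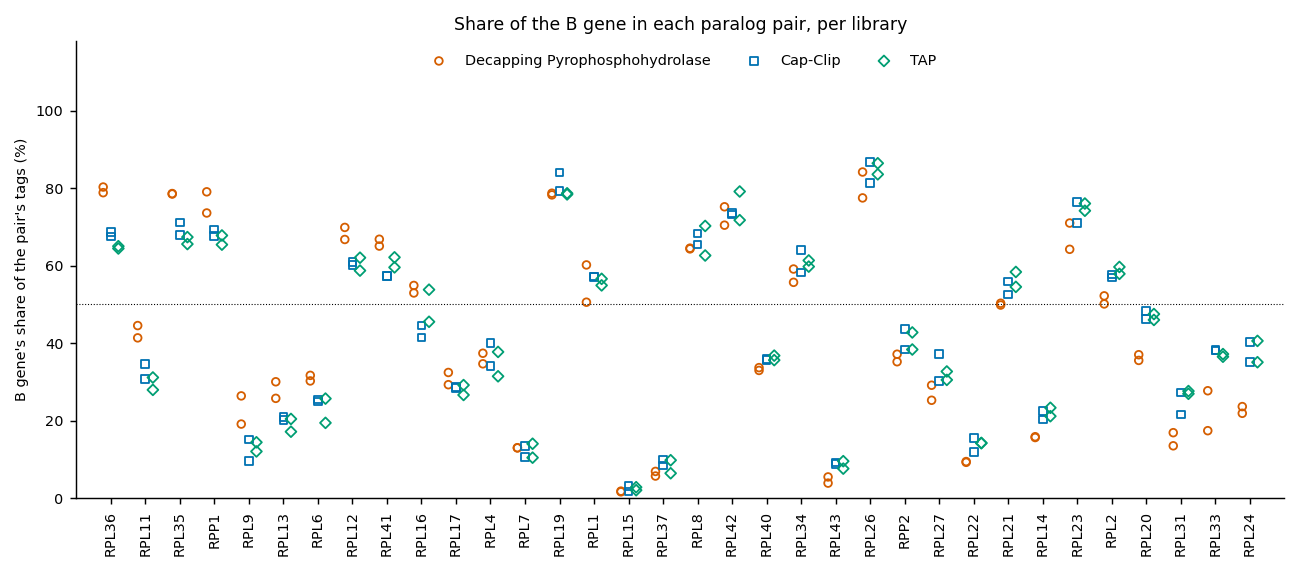
Share of the B gene in the tags of each of 34 paralog pairs in percent, 1 point per enzyme-treated library, with pairs ordered by the difference between Decapping Pyrophosphohydrolase and TAP. RPL36 and RPL11 at the left have Decapping Pyrophosphohydrolase points above those of TAP, RPL33 and RPL24 at the right have them below, and the libraries of most pairs stay on 1 side of 50%.

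Treatment with Decapping Pyrophosphohydrolase gave the large-subunit genes a larger part of the library. They held 24.6 and 22.7% of all tags with Decapping Pyrophosphohydrolase, against 21.0 and 17.7% with Cap-Clip and 17.4 and 19.9% with TAP. Both Decapping Pyrophosphohydrolase libraries were above the other 4. In CPM, both Decapping Pyrophosphohydrolase libraries were above both TAP libraries in 43 of 81 members and below both in 13. Of all 5098 tested 5′ regions, 8.57% lay above in this sense and 72% below. Against Cap-Clip, 41 members lay above, where 7.89% of all regions did, and 15 below, where 67.5% did.

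Tested with edgeR's quasi-likelihood method relative to the rest of the genes (TMM scaling, adjusted p under 0.05), 62 members were higher and 0 were lower with Decapping Pyrophosphohydrolase than with TAP, where 23.8% of all regions were called higher and 23.8% lower. The median log2 fold change of the members was 0.94, with quartiles of 0.65 and 1.33, and that of all regions was -0.03. Against Cap-Clip, 53 were higher and 0 lower, where 19.5% of all regions were called higher and 17.1% lower, with a median of 0.75 in the members and -0.02 in all regions. At an unadjusted p under 0.05, 65 and 57 of 81 members passed, and 2789 and 2379 of all 5098 regions. TMM scaling sets the middle of all regions near 0. Scaled to library totals alone, the median of all regions moved to -0.75 against TAP and -0.64 against Cap-Clip, the members' medians were 0.24 and 0.16, and the members' calls were 29 higher and 8 lower against TAP, and 24 higher and 6 lower against Cap-Clip. Of all regions, 4.94% were higher and 63.2% lower against TAP, and 4.18% were higher and 55% lower against Cap-Clip. With the no-enzyme libraries also in the fit, 18 and 5 members were called, all higher, where 17.4% and 12.9% of all regions were called higher. There the share of the members was near that of all regions against TAP and below it against Cap-Clip. Without Cap-Clip replicate 2 the count against Cap-Clip was 31, and of all regions 10.4% were higher and 8.02% lower.

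**Figure D3:**
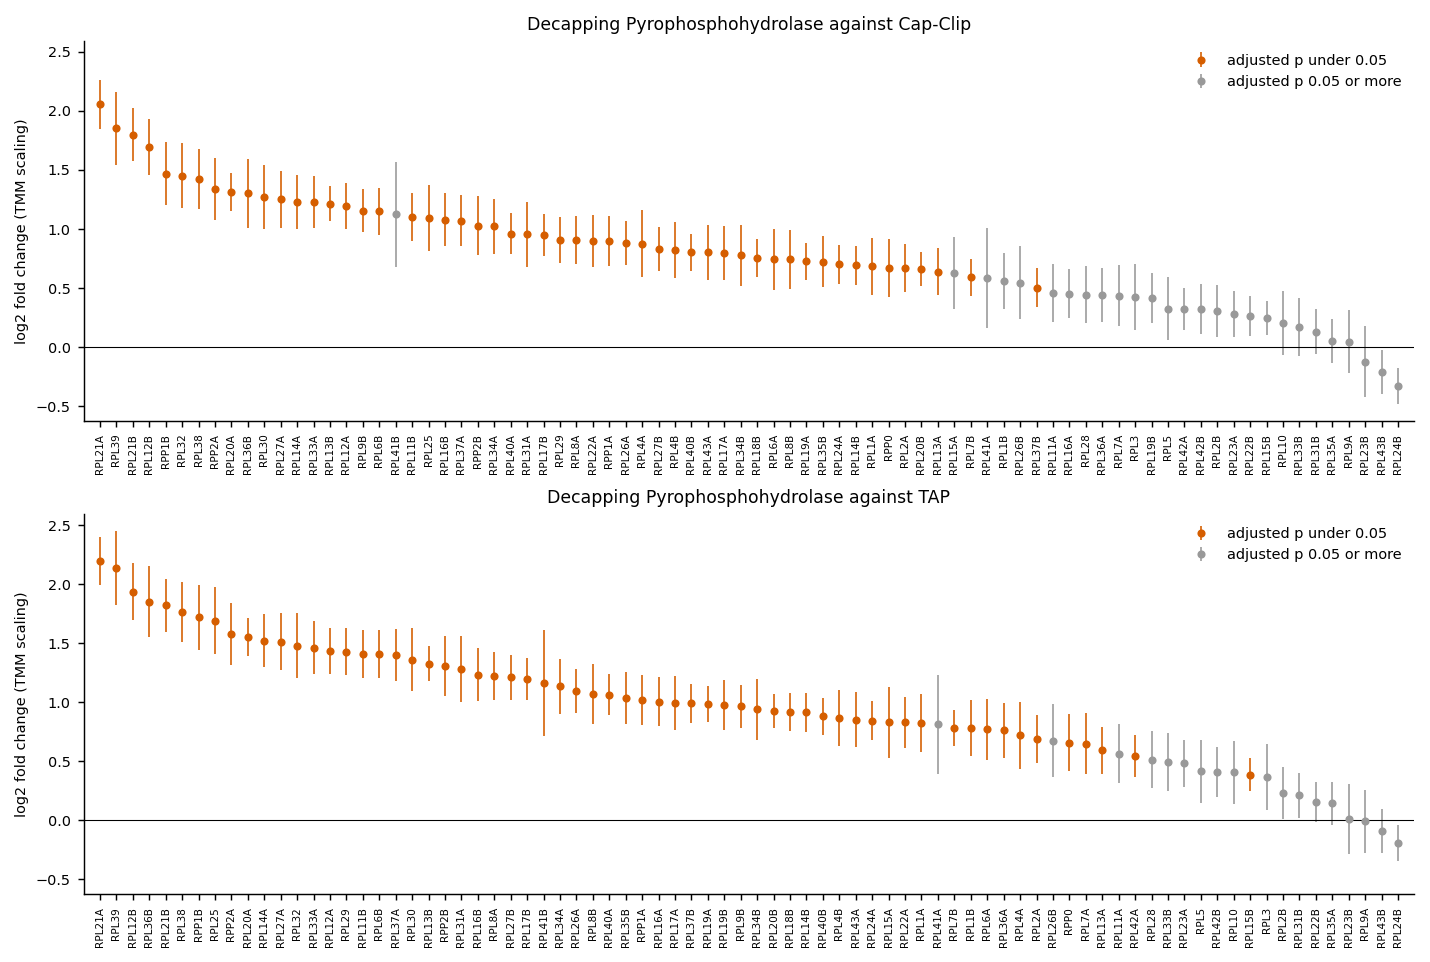
Log2 fold change of each of 80 large-subunit genes with its SE, Decapping Pyrophosphohydrolase against Cap-Clip above and against TAP below, on the TMM scale. Orange points passed adjusted p under 0.05, and all of these lie above 0, and RPL21A is highest in both panels.

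RPL21A led both comparisons. It had 2319 and 1913 CPM with Decapping Pyrophosphohydrolase, 803 and 730.2 CPM with Cap-Clip, 771 and 728 CPM with TAP and 84.2 and 1648 CPM with no enzyme. The Decapping Pyrophosphohydrolase libraries lay above all 4 libraries of the other enzymes, and the log2 fold change (± SE) was 2.20 ± 0.20 (adjusted p = 4.49e-06) against TAP and 2.05 ± 0.20 (adjusted p = 1.87e-05) against Cap-Clip. Its paralog RPL21B had 2305 and 1938 CPM with Decapping Pyrophosphohydrolase, 1019 and 810.4 CPM with Cap-Clip, 925 and 1022 CPM with TAP and 111 and 1747 CPM with no enzyme. Its log2 fold changes were 1.82 ± 0.22 (adjusted p = 3.48e-05) and 1.80 ± 0.23 (adjusted p = 7.89e-05), and its libraries did not overlap either.

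The proteins of RPL39 and RPL25 lie at the exit tunnel of the subunit, where RPL25 also forms a docking site for factors that meet the new chain. RPL39 had 6819.5 and 5264 CPM with Decapping Pyrophosphohydrolase, 3109 and 1869.7 CPM with Cap-Clip, 2106 and 2338 CPM with TAP and 543 and 6145 CPM with no enzyme, with a log2 fold change of 2.14 ± 0.31 (adjusted p = 1.18e-04) against TAP and 1.85 ± 0.31 (adjusted p = 5.51e-04) against Cap-Clip. RPL25 had 5493 and 4027 CPM with Decapping Pyrophosphohydrolase, 3957 and 2685 CPM with Cap-Clip, 2442 and 2347 CPM with TAP and 349 and 4039 CPM with no enzyme, with 1.69 ± 0.28 (adjusted p = 3.33e-04) against TAP. In both genes the Decapping Pyrophosphohydrolase libraries lay above those of the other enzymes.

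In the stalk, which recruits the elongation factors, RPP1B had 7135 and 8226 CPM with Decapping Pyrophosphohydrolase, 4349.9 and 3991 CPM with Cap-Clip, 3813 and 3774 CPM with TAP and 642 and 5922 CPM with no enzyme. Its log2 fold change was 1.72 ± 0.27 (adjusted p = 2.05e-04) against TAP and 1.47 ± 0.27 (adjusted p = 0.00102) against Cap-Clip. RPP2A had 7334 and 7659 CPM with Decapping Pyrophosphohydrolase, 4458 and 4482 CPM with Cap-Clip, 4268 and 3899 CPM with TAP and 599 and 6058 CPM with no enzyme. Its log2 fold changes were 1.58 ± 0.26 (adjusted p = 2.98e-04) and 1.34 ± 0.26 (adjusted p = 0.00154). RPL12B, for the protein at the base of the stalk, had 3729 and 4671 CPM with Decapping Pyrophosphohydrolase, 1955 and 1962 CPM with Cap-Clip, 1744 and 1817 CPM with TAP and 357 and 3593 CPM with no enzyme. Its log2 fold changes were 1.94 ± 0.24 (adjusted p = 3.54e-05) and 1.69 ± 0.24 (adjusted p = 1.75e-04). All 3 rose against both enzymes, with no overlap between libraries. The stalk core gene RPP0 had 3767 and 3925 CPM with Decapping Pyrophosphohydrolase, 3586 and 3708 CPM with Cap-Clip, 3725 and 4165 CPM with TAP and 508 and 2924 CPM with no enzyme. Its Decapping Pyrophosphohydrolase libraries fell among those of the other enzymes in CPM, and its log2 fold changes on the TMM scale were 0.66 ± 0.24 (adjusted p = 0.0369) and 0.67 ± 0.24 (adjusted p = 0.0426).

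RPL36B, RPL38, RPL20A and RPL32 were also among the largest changes. RPL36B had 9704 and 7896 CPM with Decapping Pyrophosphohydrolase, 6164 and 4502 CPM with Cap-Clip, 4270.2 and 3669 CPM with TAP and 465 and 5823 CPM with no enzyme, with a log2 fold change of 1.85 ± 0.30 (adjusted p = 2.42e-04) against TAP and 1.30 ± 0.30 (adjusted p = 0.00398) against Cap-Clip. RPL38 had 4615 and 3197 CPM with Decapping Pyrophosphohydrolase, 2355 and 2015 CPM with Cap-Clip, 1967 and 1774 CPM with TAP and 609 and 2292 CPM with no enzyme, with 1.76 ± 0.25 (adjusted p = 1.05e-04) and 1.42 ± 0.25 (adjusted p = 7.84e-04). In both genes the Decapping Pyrophosphohydrolase libraries lay above the 4 others. RPL20A had 811 and 848 CPM with Decapping Pyrophosphohydrolase, 503 and 504 CPM with Cap-Clip, 472 and 449.9 CPM with TAP and 44.8 and 582 CPM with no enzyme, with 1.55 ± 0.16 (adjusted p = 1.00e-05) and 1.32 ± 0.16 (adjusted p = 6.52e-05). RPL32 had 6258 and 5627 CPM with Decapping Pyrophosphohydrolase, 3494 and 3024 CPM with Cap-Clip, 3024 and 3845 CPM with TAP and 466 and 5761 CPM with no enzyme, with 1.45 ± 0.27 (adjusted p = 0.00127) against Cap-Clip. Again both Decapping Pyrophosphohydrolase libraries were above the 4 others. At the low end, RPL24B had 174 and 207 CPM with Decapping Pyrophosphohydrolase, 331 and 393 CPM with Cap-Clip, 397 and 316 CPM with TAP and 227 and 211 CPM with no enzyme. Its Decapping Pyrophosphohydrolase libraries were the lowest of the 6, and its log2 fold changes of -0.19 ± 0.15 (adjusted p = 0.308) and -0.33 ± 0.15 (adjusted p = 0.103) did not pass.

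The most abundant members were RPL41B and RPL41A, which encode a very small basic protein. RPL41B had 26507 and 16916 CPM with Decapping Pyrophosphohydrolase, 19097 and 10406 CPM with Cap-Clip, 11462 and 19406 CPM with TAP and 5443 and 18843 CPM with no enzyme. RPL41A had 13162 and 9083 CPM with Decapping Pyrophosphohydrolase, 14244 and 7714 CPM with Cap-Clip, 6978 and 13173 CPM with TAP and 1668 and 12190.1 CPM with no enzyme. Libraries of different enzymes overlapped in both, and replicates of 1 enzyme differed by more than the means of the enzymes did. The log2 fold changes against TAP were 1.17 ± 0.45 (adjusted p = 0.044) for RPL41B and 0.81 ± 0.42 (adjusted p = 0.126) for RPL41A. RPL26B, at the rim of the exit tunnel, had 7244 and 5282 CPM with Decapping Pyrophosphohydrolase, 7369 and 5441 CPM with Cap-Clip, 5696 and 6947 CPM with TAP and 499.8 and 4794 CPM with no enzyme, and its enzymes overlapped as well. RPL3, which reaches toward the peptidyl transferase centre, had 4744 and 5539 CPM with Decapping Pyrophosphohydrolase, 5724 and 5846 CPM with Cap-Clip, 5602 and 7240.4 CPM with TAP and 580.0 and 4385 CPM with no enzyme. Its Decapping Pyrophosphohydrolase libraries were the lowest of the 6, although its fold change lay above 0 on the TMM scale. Neither was called against TAP, with log2 fold changes of 0.67 ± 0.31 (adjusted p = 0.0849) for RPL26B and 0.37 ± 0.28 (adjusted p = 0.295) for RPL3.

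RPL31A, for a protein near the exit tunnel, had 7207 and 6288 CPM with Decapping Pyrophosphohydrolase, 5787 and 4622 CPM with Cap-Clip, 4568 and 4441 CPM with TAP and 592 and 5661 CPM with no enzyme, with a log2 fold change of 1.28 ± 0.28 (adjusted p = 0.00191) against TAP. RPL30 had 6247 and 6117 CPM with Decapping Pyrophosphohydrolase, 4099 and 3588 CPM with Cap-Clip, 3609 and 4169 CPM with TAP and 405 and 4584 CPM with no enzyme, with 1.36 ± 0.27 (adjusted p = 0.00105). In both the Decapping Pyrophosphohydrolase libraries were the highest of the 6. RPL36B, RPP2A and RPP1B, given above, were also among the most abundant members.

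Proteins of the small subunit were also higher with Decapping Pyrophosphohydrolase, and 44 of 56 passed as higher and 0 as lower against TAP, with a median log2 fold change of 0.99. Against Cap-Clip, 39 of them were higher and 0 lower. RPS27B (3.18 ± 0.33), RPS26A (2.75 ± 0.15) and RPS8A (2.47 ± 0.15) had the largest. Among assembly factors of the 60S subunit and chaperones of its proteins, more fell than rose. Of all regions, 23.8% were called higher and 23.8% lower against TAP, and 19.5% and 17.1% against Cap-Clip. Of 53 tested assembly factors of the 60S subunit, 4 were higher and 21 lower, with a median of -0.26. Against Cap-Clip, 3 were higher and 18 lower. The lowest were RIA1 (-2.17 ± 0.26), a GTPase of late 60S maturation that acts in the release of Tif6, and the helicases DBP7 (-1.96 ± 0.19) and DBP10 (-1.51 ± 0.17). Of 5 chaperones of large-subunit proteins, 0 were higher and 2 lower: SQT1 (-0.54 ± 0.15), which holds the product of RPL10, and RRB1 (-0.46 ± 0.16), which holds that of RPL3. Of 10 tested regulators of ribosomal protein genes, 2 were higher and 3 lower, shares near the 23.8% and 23.8% of all regions, the lower ones being TOR1 (-1.52 ± 0.38), STB3 (-0.77 ± 0.23) and RAP1 (-0.64 ± 0.25). Against Cap-Clip, 2 of the 10 were higher, HMO1 (0.64 ± 0.16) and DOT6 (0.61 ± 0.16), and 1 was lower, IFH1 (-0.47 ± 0.18), where 19.5% of all regions were higher and 17.1% lower.

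Coding length moved with these folds. Over all 5098 regions the log2 fold change against TAP and the coding length had a Spearman rho of -0.59, and over the 81 members it was -0.27, as a description across genes that share libraries. The members' coding lengths had a median of 450 nt and reached 1164 nt. Among 2250 genes of no ribosomal protein up to that length, the median log2 fold change was 0.30 and 39.0% were higher. Above 300 and up to 600 nt, the 56 members had a median of 1.00 with 76.8% higher, and 594 other genes had 0.48 with 50.7% higher. The part of length in the results of the members and of the other gene lists was not tested. Members with a coding intron within 42 nt of the main start, the length of genome in a read, numbered 32 and had a median of 1292 CPM, against 2566 CPM in the 21 with a more distant intron and 2650.1 CPM in the 28 without one. Whether reads across a splice junction were aligned is not given in the sources used here.

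Cap-Clip and TAP, which are both acid pyrophosphatases, were close to each other. No member passed in edgeR's test of Cap-Clip against TAP, where 0% of the 5098 regions did. DESeq2 also called 0 members. At an unadjusted p under 0.05, 4 of 81 members and 530 of 5098 regions passed in edgeR. In DESeq2, 7 members and 147 of 5816 regions did. The members' log2 fold changes had a median of 0.19 and lay between -0.19 and 0.59, with 71 of 81 above 0, and the median of all regions was -0.0029.

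Comparison with no enzyme measures how far the ends of these genes depend on decapping, and here the 2 control libraries disagreed. No-enzyme replicate 2, whose members' share lay with those of the enzyme-treated libraries, was also the shallowest library. Tested on library totals over 8 libraries with edgeR, where 40.4%, 70.9% and 75.5% of the regions passed in either direction with Decapping Pyrophosphohydrolase, Cap-Clip and TAP, Decapping Pyrophosphohydrolase had 3 members higher and 1 lower (37.4% and 3% of the 5038 tested regions), Cap-Clip 5 and 1 (69% and 1.87%), and TAP 5 and 1 (73.7% and 1.77%). The members' median log2 fold changes were 1.22, 0.90 and 0.95 in that order, and those of all regions 1.36, 1.95 and 2.06. Without no-enzyme replicate 2, 79 members were higher with Decapping Pyrophosphohydrolase, 80 with Cap-Clip and 80 with TAP, and 1 was lower in each. Of all regions, 60.7% were higher and 4.97% lower with Decapping Pyrophosphohydrolase, 80.2% and 3.34% with Cap-Clip and 83.6% and 3.10% with TAP. Without replicate 1, the counts were 0 higher and 0 lower with Decapping Pyrophosphohydrolase, 6 and 5 with Cap-Clip, and 6 and 6 with TAP. Of all regions, 0% were higher and 0% lower with Decapping Pyrophosphohydrolase, 5.79% and 0.352% with Cap-Clip and 8.67% and 0.450% with TAP. The result thus turned on which control was used, and scaling and tool also changed it. Leaving out any 1 enzyme-treated library left 2 or 3 members called in each comparison. With TMM scaling the counts were 4 higher and 2 lower with Decapping Pyrophosphohydrolase, 0 and 2 with Cap-Clip, and 0 and 2 with TAP. Of all regions, 3.06% were higher and 7.03% lower with Decapping Pyrophosphohydrolase, 1.69% and 7.17% with Cap-Clip and 2.02% and 7.07% with TAP. With DESeq2 they were 12 and 1, 0 and 6, and 0 and 13 in the same order. Of all regions, 3.18% were higher and 14.5% lower with Decapping Pyrophosphohydrolase, 2.06% and 13.3% with Cap-Clip and 2.18% and 13.6% with TAP.

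The 6 members called higher on library totals, over the 3 comparisons, were RPL13B, RPL15B, RPL37B, RPL42A, RPL42B and RPL43B. RPL13B had 512 and 509 CPM with Decapping Pyrophosphohydrolase, 333 and 333 CPM with Cap-Clip, 359.9 and 304 CPM with TAP and 9.51 and 235 CPM with no enzyme, with a log2 fold change of 2.36 ± 0.96 (adjusted p = 0.0373) for Decapping Pyrophosphohydrolase. RPL15B, given above, had 1.87 ± 0.49 (adjusted p = 0.00115) for Decapping Pyrophosphohydrolase and 2.20 ± 0.48 (adjusted p = 2.24e-05) for TAP, which with DESeq2 was -0.025. RPL43B had 201 and 142 CPM with Decapping Pyrophosphohydrolase, 320.0 and 274 CPM with Cap-Clip, 337 and 251 CPM with TAP and 59.8 and 99.1 CPM with no enzyme, with 2.01 ± 0.84 (adjusted p = 0.0251) for Cap-Clip and 2.00 ± 0.83 (adjusted p = 0.0241) for TAP, which with DESeq2 was -0.035. In all 3 genes the enzyme-treated libraries lay above both control libraries. RPL42B, for a protein at the exit site of transfer RNA, had 777 and 452 CPM with Decapping Pyrophosphohydrolase, 719.6 and 753 CPM with Cap-Clip, 756 and 740.1 CPM with TAP and 58.4 and 285 CPM with no enzyme, with 2.24 ± 1.02 (adjusted p = 0.0372) for TAP. RPL37B had 162 and 136 CPM with Decapping Pyrophosphohydrolase, 159 and 158 CPM with Cap-Clip, 145 and 95.0 CPM with TAP and 17.7 and 99.1 CPM with no enzyme, with 2.22 ± 0.60 (adjusted p = 0.00155) for Decapping Pyrophosphohydrolase, 2.31 ± 0.60 (adjusted p = 3.54e-04) for Cap-Clip and 1.92 ± 0.60 (adjusted p = 0.00259) for TAP. RPL42A had 257 and 189 CPM with Decapping Pyrophosphohydrolase, 264 and 271 CPM with Cap-Clip, 298 and 195 CPM with TAP and 19.0 and 136 CPM with no enzyme, with 2.23 ± 0.88 (adjusted p = 0.0179) for Cap-Clip and 2.12 ± 0.87 (adjusted p = 0.0226) for TAP. In each of these genes replicate 2 was the higher control library. The member called lower in all 3 comparisons was RPL29, whose window lacks its main cluster and whose control libraries held 335 and 0 CPM.

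Within genes, the starts counted with Decapping Pyrophosphohydrolase differed from those with Cap-Clip and TAP, above all in a larger share of starts at T. Of the members' tags upstream of the start codon, 3.30 ± 0.620% began with T with Decapping Pyrophosphohydrolase, 0.924 ± 0.129% with Cap-Clip and 0.968 ± 0.194% with TAP (mean ± SD, n = 2). Tags at a pyrimidine-purine step made up 86.2% and 83.0% with Decapping Pyrophosphohydrolase, 90.8% and 88.6% with Cap-Clip and 88.1% and 91.0% with TAP, and A-first tags 78.9 ± 1.33%, 78.9 ± 1.40% and 78.8 ± 1.68% in the same order. T-first tags were separated between enzymes and A-first tags were not. In the other genes the T-first share with Decapping Pyrophosphohydrolase was 6.04 ± 0.529%, with both libraries above both of the members. With no enzyme, 14.1% and 2.92% of the members' tags began with T, against 2.86% and 3.74% with Decapping Pyrophosphohydrolase. The use of single starts was not tested against no enzyme. The word start is used for any position with counted 5′ ends, and whether the ends at a given position were capped was not tested.

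**Figure D4:**
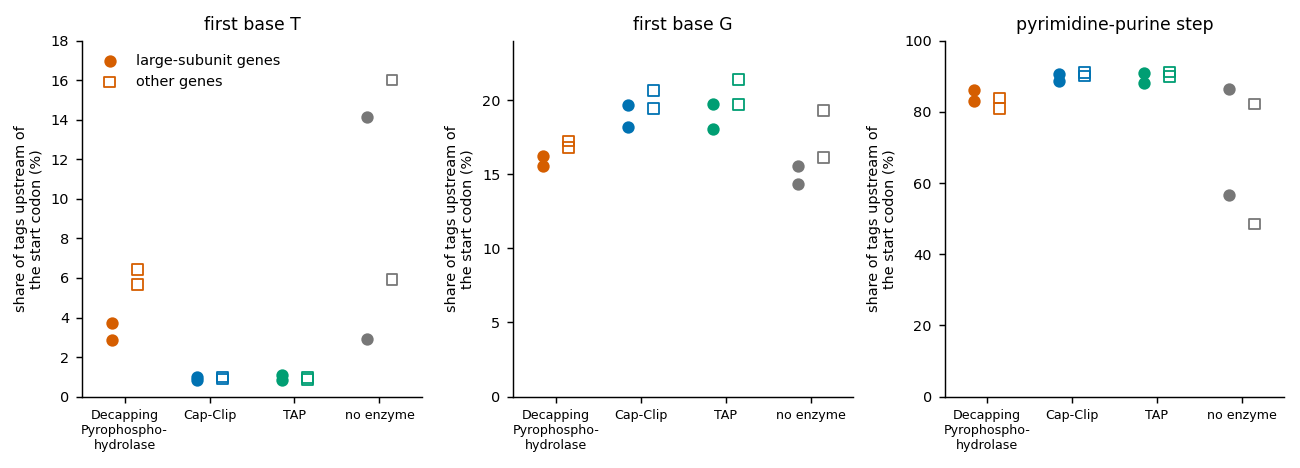
Share of tags upstream of the start codon that begin with T, that begin with G, or that lie at a pyrimidine-purine step, in percent, 1 point per library, with filled circles for the large-subunit genes and open squares for other genes. The T-first share of the large-subunit genes is 2.86% and 3.74% with Decapping Pyrophosphohydrolase, and the Cap-Clip and TAP libraries lie near 1%.

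The use of single starts was tested relative to the other starts of the same gene with edgeR's diffSpliceDGE at adjusted p under 0.05, over 27372 positions, of which 2218 lay in 80 members. The depth of members and other genes was not matched. Against TAP, 440 of these rose and 138 fell with Decapping Pyrophosphohydrolase, where 9.33% of all positions rose and 3.53% fell. Against Cap-Clip 438 rose and 85 fell, where 9.09% and 2.84% of all positions did. Between Cap-Clip and TAP 0 rose and 2 fell, where 0% and 0.0146% did. Calls of the members' positions were fewest without TAP replicate 1 against TAP and without Cap-Clip replicate 2 against Cap-Clip. The median log2 relative use of these positions was 0.24 and 0.20 there, and 0.032 and 0.069 with all enzyme-treated libraries. Between Cap-Clip and TAP, leaving out 1 library gave medians of -0.15 to 0.12. Shares of all positions called in these fits are not given. Of the members' 258 positions at T, 194 rose and 1 fell against TAP, and of the 108 among them that follow an A, 91 rose. Of 488 positions at G, 9 rose and 55 fell, and of 1293 at A, 187 rose and 80 fell. In other genes 906 of 1084 positions at T rose (83.6%, against 75.2% in the members). After an A, 86.4% of the positions at T rose in other genes and 84.3% in the members. At G, 1.88% rose and 2.88% fell in other genes, against 1.84% and 11.3% in the members. At A, 5.07% rose and 3.67% fell in other genes, against 14.5% and 6.19% in the members. Per gene, the T-first share of both Decapping Pyrophosphohydrolase libraries was above that of both TAP libraries in 72 of 81 members, where 65.3% of genes with at least 10 tags in each library did so.

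The starts with the largest changes are shown with the start in capitals. The positions at 6 nt in RPL17A and 12 nt in RPL38 were chosen after their values were seen.
RPP0 at 6 nt, chrXII:805871-805891 (+ strand): gtataataagTttgaaatggg
RPP2B at 64 nt, chrIV:1239418-1239438 (+ strand): agtccgcgaaTttattaccgc
RPP1A at 24 nt, chrIV:310136-310156 (- strand): cttaaaccgaTtatctctaaa
RPL17B at 6 nt, chrX:90770-90790 (+ strand): aacgaacaaaTttaaaatggc
RPL17A at 6 nt, chrXI:109253-109273 (+ strand): ctactaatagAttaaaatggc
RPL38 at 12 nt, chrXII:781381-781401 (- strand): tacgacaaaaTatcaaggaaa
RPL5 at 54 nt, chrXVI:303057-303077 (+ strand): aacctttactTttgttttctc
RPL9A at 7 nt, chrVII:228326-228346 (- strand): gtaccagaagTtcaatcatga
RPL13A at 38 nt, chrIV:308376-308396 (+ strand): gaaggggtttGagaaaagcat
RPL12B at 72 nt, chrIV:1301534-1301554 (+ strand): taaaaacagtAcctaaattat
The first 8 rose and the last 2 fell. Of the 8 that rose, 7 begin with T, and in 4 of these the base before is an A. The start in RPL17A begins with A but follows a G, so none of the 8 is a pyrimidine-purine step.

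RPL17A and RPL17B encode a protein at the exit tunnel. Of the tags of RPL17B, the start at 6 nt held 19.1% and 22.0% with Decapping Pyrophosphohydrolase, 0.411% and 0.0693% with Cap-Clip, 0.0406% and 0% with TAP and 8.49% and 19.5% with no enzyme. The counts were 425 and 985 tags with Decapping Pyrophosphohydrolase, 5 and 6 tags with Cap-Clip, 4 and 0 tags with TAP and 9 and 15 tags with no enzyme (edgeR adjusted p = 2.73e-48 against TAP). With the main start at 21 nt, this was the member with the largest T-first share, 28.6% with Decapping Pyrophosphohydrolase, 1.25% with Cap-Clip and 0.930% with TAP. In RPL17A, where the letters at the same distance differ, the start at 6 nt held 7.84% and 7.72% with Decapping Pyrophosphohydrolase, 0.0656% and 0.0326% with Cap-Clip, 0.0293% and 0% with TAP and 3.14% and 5.03% with no enzyme (edgeR adjusted p = 6.14e-45 against TAP). Both paralogs thus had 5′ ends just before the start codon with Decapping Pyrophosphohydrolase and with no enzyme that were nearly missing with Cap-Clip and TAP. Whether these ends were capped was not tested.

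In RPL38 the start at 12 nt held 11.7% and 12.1% with Decapping Pyrophosphohydrolase, 0.268% and 0.0761% with Cap-Clip, 0.0663% and 0.0968% with TAP and 10.3% and 9.19% with no enzyme (edgeR adjusted p = 9.58e-38 against TAP). In RPP0 the start at 6 nt had 166 and 259 tags with Decapping Pyrophosphohydrolase, 0 and 4 tags with Cap-Clip, 1 and 0 tags with TAP and 7 and 4 tags with no enzyme (edgeR adjusted p = 6.96e-52 against TAP). At 64 nt RPP2B had 199 and 474 tags with Decapping Pyrophosphohydrolase, 1 and 1 tags with Cap-Clip, 1 and 0 tags with TAP and 7 and 4 tags with no enzyme (edgeR adjusted p = 2.36e-36). Control libraries had some of these tags in each of the 3 genes. As a share of its gene's tags, the RPP0 start held 2.46% and 1.90% with Decapping Pyrophosphohydrolase and 1.87% and 1.69% with no enzyme. The RPP2B start held 2.56% and 3.27% with Decapping Pyrophosphohydrolase and 1.94% and 1.47% with no enzyme. The no-enzyme shares of these 2 starts rest on 7 and 4 tags each. In RPP1A at 24 nt the counts were 50 and 86 tags with Decapping Pyrophosphohydrolase, 0 and 1 tags with Cap-Clip, 0 and 0 tags with TAP and 0 and 3 tags with no enzyme. In RPL9A at 7 nt they were 83 and 109 tags with Decapping Pyrophosphohydrolase, 0 and 1 tags with Cap-Clip, 0 and 1 tags with TAP and 0 and 2 tags with no enzyme. In RPL5 at 54 nt they were 36 and 126 tags with Decapping Pyrophosphohydrolase, 0 and 0 tags with Cap-Clip, 2 and 0 tags with TAP and 1 and 2 tags with no enzyme. The Decapping Pyrophosphohydrolase libraries stood above those with Cap-Clip and TAP in all 3 genes. As a share of the gene's tags, no-enzyme replicate 2 was level with or above them. In RPP1A the start at 24 nt held 1.09% and 1.13% with Decapping Pyrophosphohydrolase, against 2.05% in no-enzyme replicate 2. In RPL9A the start at 7 nt held 1.91% and 1.54% with Decapping Pyrophosphohydrolase, against 1.68% in no-enzyme replicate 2. In RPL5 the start at 54 nt held 0.966% and 1.13% with Decapping Pyrophosphohydrolase, against 1.17% in no-enzyme replicate 2. These no-enzyme shares rest on 2 or 3 tags. RPL31A at 46 nt had 37 and 72 tags with Decapping Pyrophosphohydrolase, 0 and 0 tags with Cap-Clip, 0 and 0 tags with TAP and 0 and 1 tags with no enzyme. No fold is given where a group had so few tags.

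The 5 named starts that fell lay at A or G, upstream of the main start. Of the tags of RPL13A, the start at 38 nt, at a TG step, held 4.78% and 5.22% with Decapping Pyrophosphohydrolase, 15.4% and 19.0% with Cap-Clip, 22.7% and 23.7% with TAP and 13.9% and 2.90% with no enzyme. The Decapping Pyrophosphohydrolase libraries lay below those of both other enzymes, with a log2 relative use of -2.18 (edgeR adjusted p = 1.03e-14 against TAP). The start at 72 nt in RPL12B held 0.315% and 0.382% with Decapping Pyrophosphohydrolase, 2.18% and 2.44% with Cap-Clip, 2.60% and 1.86% with TAP and 0% and 0% with no enzyme (-2.61, edgeR adjusted p = 7.97e-15). RPL19A at 54 nt (-1.93), RPL17A at 44 nt (-1.78) and RPL35B at 65 nt (-1.59) also fell against TAP. Each of the 5 fell against Cap-Clip too, RPL12B by 2.65 and RPL13A by 1.75 on the log2 scale.

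**Figure D5:**
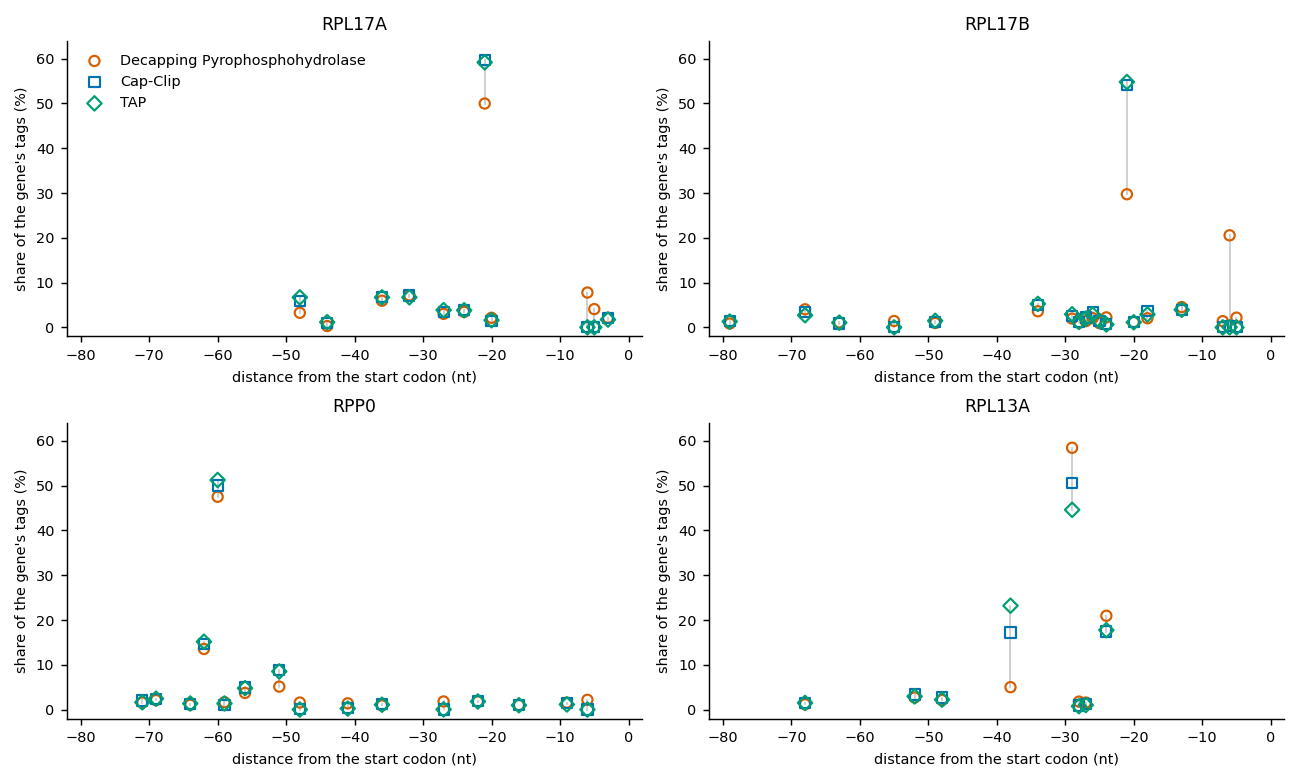
Share of the tags of RPL17A, RPL17B, RPP0 and RPL13A at each start, in percent, as the mean of 2 libraries per enzyme, against the distance from the start codon in nt, for starts that reach 1% with any enzyme. At 6 nt RPL17B has 20.6% with Decapping Pyrophosphohydrolase, 0.240% with Cap-Clip and 0.0203% with TAP, and at 38 nt RPL13A has 5.00%, 17.2% and 23.2% in the same order.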

How the data were processed

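Positions and strands of 5′ ends came from 8 libraries of BY4741 yeast, 2 per treatment. The authors deposited whole-number counts of tags per position and strand for each library, in build R64 (sacCer3), and the submitters' processing notes name Novoalign. The oligonucleotide carried a random barcode of 8 bases; whether the counts were collapsed by it, and how repeated positions were aligned, is not given in the sources used here.

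Tags were summed per 5′ region (700 nt before the start codon and 50 nt after it) of 6002 genes. With edgeR 4.0.16 in R 4.3.3 (filterByExpr, glmQLFit, glmQLFTest, Benjamini-Hochberg over all genes, adjusted p under 0.05, 2-sided), enzymes were compared with TMM scaling on 6 libraries, and each enzyme with no enzyme on library totals over 8 libraries, since many regions differ from that control. Use of single starts was tested with diffSpliceDGE over all genes. DESeq2 1.42.0 and limma 3.58.1 served as alternatives, with other scalings, filters, windows and each library left out. Python 3.11.15 with pandas 2.3.3, numpy 2.4.6, scipy 1.17.1 and matplotlib 3.10.9 gave the descriptions and figures. The region and usage tests were first tested on simulated data.

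The members, gene lists and tests were chosen with earlier results of these data known. Genes given with full values were the 10 most abundant members, up to 10 called members per direction and comparison by size of change (at least 20 CPM in the higher group and the same direction in both replicate pairs), the 10 pairs most different in leader length, the 10 longest and 10 shortest leaders, and up to 5 starts per direction and comparison. One gene is counted in the totals, but its own values are not reported here. The lists of other genes were small-subunit proteins, assembly factors of the 60S subunit, chaperones and regulators, with up to 3 called genes named from each. Same-numbered libraries were taken as aliquots of 1 culture, because the design splits each of 2 replicates into 4 aliquots, and the deviations of same-numbered libraries correlated at 0.0418 to 0.194 over 5086 regions. Replicates differed by more than sampling noise, with chi-square per degree of freedom of 8.71 to 13.6.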

Additional observations from a re-analysis of the deposited data

How the results depend on the processing

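Against TAP and Cap-Clip, 62 and 53 members were called with Decapping Pyrophosphohydrolase. On library totals without TMM the counts were 37 and 30 (29 higher and 8 lower, 24 higher and 6 lower), and with all 8 libraries in the fit 18 and 5. Of all regions, 23.8% and 19.5% were higher and 23.8% and 17.1% lower in the main fit. On library totals 4.94% and 4.18% were higher and 63.2% and 55% lower. With all 8 libraries 17.4% and 12.9% were higher and 19.7% and 11.9% lower. Leaving out 1 library gave 44 to 58 against TAP and 31 (without Cap-Clip replicate 2) to 52 against Cap-Clip, and 0 to 1 for Cap-Clip against TAP. DESeq2, no filter, 200 nt upstream, positions with at least 2 tags and only positions upstream of the start codon kept the counts between 57 and 64 against TAP and between 48 and 56 against Cap-Clip. Of all regions in these settings, 16% to 23.8% were higher and 11.3% to 24.5% lower against TAP. Against Cap-Clip 12.3% to 19.9% were higher and 7.67% to 17.7% lower.

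Against no enzyme, 6 members were called for TAP (5 higher and 1 lower), 6 for Cap-Clip (5 and 1) and 4 for Decapping Pyrophosphohydrolase (3 and 1). Of all regions, 73.7%, 69% and 37.4% were higher and 1.77%, 1.87% and 3% lower in that order, which is kept below. TMM scaling gave 0 higher and 2 lower, 0 and 2, and 4 and 2. Of all regions, 2.02%, 1.69% and 3.06% were higher and 7.07%, 7.17% and 7.03% lower. Only positions upstream of the start codon gave 2 higher and 1 lower for each enzyme. Of all regions, 72.9%, 68.2% and 40% were higher and 1.6%, 1.7% and 2.48% lower. DESeq2 gave 0 higher and 13 lower, 0 and 6, and 12 and 1. Of all regions, 2.18%, 2.06% and 3.18% were higher and 13.6%, 13.3% and 14.5% lower. Leaving out 1 library gave 2 to 81 for TAP, 2 to 81 for Cap-Clip and 0 to 80 for Decapping Pyrophosphohydrolase, with the highest counts without no-enzyme replicate 2. With DESeq2 the log2 fold changes of RPL43B and RPL15B for TAP against no enzyme turned to -0.035 and -0.025. The median of all regions in that comparison was 2.06 on library totals, 0.03 with TMM scaling and -0.19 with DESeq2. The cause was not tested.

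With the replicate block, the pairing by culture, 61 and 52 members were called against TAP and Cap-Clip, all higher, and 0 for Cap-Clip against TAP. Of all regions, 24.8% were higher and 24.3% lower against TAP, and 21.7% and 19.6% against Cap-Clip. Against no enzyme, 6, 5 and 4 members were called for TAP, Cap-Clip and Decapping Pyrophosphohydrolase. Of all regions, 71.3%, 64.4% and 30.3% were higher there, and 1.61%, 1.69% and 2.44% lower. RPL42B for Cap-Clip against no enzyme was no longer called, and start sites for Cap-Clip against TAP fell to 1.

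Start sites called were 578 against TAP, 523 against Cap-Clip and 2 for Cap-Clip against TAP. Of all positions, 12.9%, 11.9% and 0.0146% were called in the same order. Leaving out 1 library gave 294 (without TAP replicate 1) to 747, 249 (without Cap-Clip replicate 2) to 692, and 0 to 10. For Cap-Clip against TAP, library totals gave 0, limma 0 and positions with at least 50 tags 1.

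The median leader of 24 nt became 25 (Decapping Pyrophosphohydrolase), 26 (Cap-Clip) and 26 (TAP) as a tag-weighted distance, and 23 with Decapping Pyrophosphohydrolase and 23 with TAP within 200 nt upstream. Counting each member once by its main start, A-first shares were 76.5%, 75.2% and 74.5%, and pyrimidine-purine shares 98.8%, 99.4% and 98.8%, in the order Decapping Pyrophosphohydrolase, Cap-Clip and TAP. Of 210 paralog shares recomputed without leaving out a library, 5 moved by more than the spread between replicates, by up to 18.5 points within 200 nt upstream. The no-enzyme replicate 2 held 80721 tags, which limits every comparison with that control.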
